A study of Mus musculus with 4 samples.

Results

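The genes described here are the components of Notch signalling named as receptors (*Notch1*, *Notch2*, *Notch3*), ligands (*Jag1*, *Dll1*, *Dll4*), target genes (*Hes1*, *Hey1*, *Heyl*) and the nuclear effector *Rbpj*, 10 of the 27998 genes counted. They were chosen by name, with earlier results of these data known. Their unique molecular identifiers (UMIs, each counting 1 captured transcript) were summed in every cluster. The clusters were those of satellite cells and of the other cells that came through the sort. The data are single-cell RNA sequencing (10X Genomics, 3′ ends) of satellite cells, the stem cells of skeletal muscle, in 2 strains of mice that lack dystrophin and in the strain that serves as control for each. B10 (strain C57/Bl10ScsSn, 15 weeks) is the control of *mdx* (C57BL/10ScSn-Dmdmdx, 11 weeks), and DBA (DBA/2, 13 weeks) is the control of D2-*mdx* (D2.B10-Dmdmdx, 14 weeks), in which the same *Dmd* mutation stands on the DBA background. Each strain is 1 library made from the pooled lower hindlimbs of 2 mice, so age differs with strain and no strain has a replicate. Cells had been sorted for α7-integrin and VCAM1 and against Cd31, Cd45, Cd11b and Sca1, a gate that depletes endothelial and white blood cells.

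Notch receptors are cut by proteases when a ligand on a neighbouring cell binds them, and the freed intracellular part joins RBPJ on DNA and switches on genes of the Hes and Hey families. In resting muscle, Notch signalling holds satellite cells in quiescence, and it declines as they differentiate. JAG1, DLL1 and DLL4 are membrane proteins of the ligand-bearing cell, such as endothelium, smooth muscle, muscle fibre or another myogenic cell, and HES1, HEY1 and HEYL are transcriptional repressors.

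After cells outside 1000 to 5000 genes or above 8% mitochondrial UMIs and likely doublets had been taken out, 4581 cells of B10 and 3279 of DBA remained beside 6313 of *mdx* and 5756 of D2-*mdx*, with a median of 6666 to 10434 UMIs per cell. Between 3 and 8 barcodes were shared by any pair of libraries. In myogenic cells *Dmd*, the mutated gene, was counted at 324 CPM in the B10 library and 287 in DBA, compared with 120 in *mdx* and 94.4 in D2-*mdx*, where CPM gives a gene's UMIs per 1000000 UMIs of the cells summed. Clusters were named from marker genes that include no Notch gene, and the Notch pathway genes were left out of the features that formed the clusters. The myogenic cells (4418 of B10 and 2701 of DBA, and 4820 of *mdx* and 4183 of D2-*mdx*) fell into 8 clusters: muscle stem cell (MuSC)-like clusters 0, 1 and 6, cycling progenitor-like, differentiating myocyte-like, DMD-enriched-like (led by *Postn*, *Gper1* and *Mgp*) and interferon-responding cells, and cluster 3, which stayed unnamed and was led by *Esm1*, *Fosl1* and *Tnc*. MuSC-like clusters 0 and 1 hold most MuSC-like cells and differ in immediate-early genes, which were high in cluster 0, while cluster 6 was led by *Hhip* and *Dlk1*, the latter a non-canonical Notch ligand. Class means given below weight equally the libraries with at least 10 cells of the class, a minimum chosen after the data were seen. Intervals, given in parentheses after the value of a library or ratio, have a confidence level of 95% and are exact (Poisson for CPM, Clopper-Pearson for shares, and for log2 ratios from the binomial share of one count in both). Ranges over libraries or clusters are not intervals and are named as ranges. Intervals cover counting error only, not the spread between mice, and no test between strains was possible.

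Promoters of the genes on which the comparisons turn are shown for 300 bases each, 250 before and 50 after a RefSeq transcription start on GRCm38.p6. The set of RefSeq promoters used here held 9 for 7 of the 10 genes. This set had no entry for *Hes1*, *Hey1* and *Heyl*, so no promoter of these target genes was searched. The letters searched were TGGGAA and its reverse complement TTCCCA, the core of the sequence that RBPJ binds. A match is a description of these letters and not evidence of binding. Capitals mark a match. *Notch1* (minus strand, chr2:26503773-26504072) and *Notch3* (minus strand, chr17:32166841-32167140) are the receptors that were lower past 1.5-fold in both dystrophic libraries, *Dll1* (minus strand, chr17:15376883-15377182) is the ligand highest in differentiating cells, and *Rbpj* (plus strand, chr5:53590096-53590395) was the member with the smallest differences between libraries.
Notch1: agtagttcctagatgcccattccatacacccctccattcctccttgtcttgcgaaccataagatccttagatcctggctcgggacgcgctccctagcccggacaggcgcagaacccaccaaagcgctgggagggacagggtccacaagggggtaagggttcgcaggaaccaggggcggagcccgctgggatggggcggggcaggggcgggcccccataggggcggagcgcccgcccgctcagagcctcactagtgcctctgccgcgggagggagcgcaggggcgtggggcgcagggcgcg
Notch3: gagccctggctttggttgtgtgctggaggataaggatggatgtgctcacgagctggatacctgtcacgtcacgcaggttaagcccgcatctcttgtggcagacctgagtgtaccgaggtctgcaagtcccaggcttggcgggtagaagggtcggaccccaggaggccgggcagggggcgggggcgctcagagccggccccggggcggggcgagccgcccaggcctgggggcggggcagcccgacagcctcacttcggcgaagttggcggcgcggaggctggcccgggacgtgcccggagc
Dll1: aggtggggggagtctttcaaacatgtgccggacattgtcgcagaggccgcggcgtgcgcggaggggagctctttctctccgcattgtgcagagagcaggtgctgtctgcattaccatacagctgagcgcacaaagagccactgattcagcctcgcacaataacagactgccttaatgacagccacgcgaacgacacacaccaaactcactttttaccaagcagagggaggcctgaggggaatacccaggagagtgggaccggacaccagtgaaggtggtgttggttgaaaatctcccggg
Rbpj: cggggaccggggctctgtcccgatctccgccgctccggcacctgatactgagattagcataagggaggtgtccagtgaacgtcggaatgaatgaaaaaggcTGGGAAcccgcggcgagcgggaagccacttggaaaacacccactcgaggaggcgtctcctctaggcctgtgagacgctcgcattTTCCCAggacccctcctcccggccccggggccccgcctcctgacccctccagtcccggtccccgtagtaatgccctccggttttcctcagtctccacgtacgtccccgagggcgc
The *Rbpj* and *Notch1* windows lie inside the gene spans given below and not at the 5′ ends of those spans. The *Rbpj* window shown held the letters in both orientations. No match stood in the other 3 shown, and of the 9 promoters 2 overlapping windows of *Rbpj* alone had one. Among all 32851 mouse promoters of this set, of the same length, 25.6% held a match.

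Among the receptors, *Notch1* (ENSMUSG00000026923, chromosome 2, 26457903 to 26516663 on GRCm38) was counted in myogenic cells at 151 CPM (148 to 155) in the B10 library and 166 (161 to 171) in DBA, compared with 83.6 (80.8 to 86.5) in *mdx* and 96.3 (93.1 to 99.6) in D2-*mdx*. Both control libraries therefore lay above both dystrophic ones, with no overlap of intervals. The log2 ratio of *mdx* to B10 was -0.86 (-0.92 to -0.80) and that of D2-*mdx* to DBA was -0.79 (-0.85 to -0.72). *Notch3* (ENSMUSG00000038146, chromosome 17, 32120820 to 32166852), a receptor of satellite cells and of the mural cells of vessels, followed the same order within each pair. It was at 331 CPM (325 to 336) for B10 and 258 (253 to 264) for DBA, and at 198 (194 to 202) for *mdx* and 158 (154 to 163) for D2-*mdx*. Its log2 ratios were -0.74 (-0.78 to -0.70) and -0.71 (-0.76 to -0.66), so that it differed by about as much in the 2 pairs. *Notch2* (ENSMUSG00000027878, chromosome 3, 98013527 to 98150361) was at 90.3 CPM in the B10 library and 96.5 in DBA, compared with 82.5 in *mdx* and 59.3 in D2-*mdx*. D2-*mdx* stood apart as the lowest library, at a log2 ratio of -0.70 (-0.78 to -0.62) to DBA, whereas *mdx* over B10 was -0.13 (-0.20 to -0.06). The remaining receptor, *Notch4*, known from endothelium, reached only 1.61 to 2.38 CPM.

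The ligands were sparse in myogenic cells and differed little between dystrophic and control libraries. *Jag1* (ENSMUSG00000027276, chromosome 2, 137081456 to 137116644) was at 44.7 CPM for B10 and 30.7 for DBA, and at 34.9 for *mdx* and 27.6 for D2-*mdx*. Its log2 ratios of -0.36 (-0.46 to -0.26) and -0.15 (-0.29 to -0.02) were smaller in size than that between the 2 controls, DBA over B10, of -0.54 (-0.66 to -0.43). *Dll1* (ENSMUSG00000014773, chromosome 17, 15367354 to 15376872) was at 21.8 CPM (20.4 to 23.3) in the B10 library and 31.2 (29.2 to 33.2) in DBA, compared with 24.3 (22.8 to 25.9) in *mdx* and 26.7 (25.0 to 28.5) in D2-*mdx*. It was the only measured member whose counts went in opposite directions in the 2 disease comparisons with both intervals off 0, slightly higher in *mdx* than in B10 (0.16, 0.02 to 0.29) and slightly lower in D2-*mdx* than in DBA (-0.22, -0.36 to -0.09). As for *Jag1*, both ratios were smaller in size than that between the 2 controls, DBA over B10, of 0.51. *Dll4* (ENSMUSG00000027314, chromosome 2, 119325784 to 119335962), a ligand of endothelium, had 6, 7, 0 and 1 UMIs in the myogenic cells of B10, *mdx*, DBA and D2-*mdx*, and no ratio is given for it.

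The targets differed in how the libraries were ordered. *Heyl* (ENSMUSG00000032744, chromosome 4, 123233556 to 123249875) was at 336 CPM (330.2 to 342) for B10 and 305 (299 to 312) for DBA, and at 188 (183 to 192) for *mdx* and 176 (172 to 181) for D2-*mdx*. As with *Notch1* and *Notch3*, each dystrophic library stood below its own control, by a log2 ratio of -0.84 (-0.88 to -0.80) in *mdx* and -0.79 (-0.84 to -0.74) in D2-*mdx*. *Hes1* (ENSMUSG00000022528, chromosome 16, 30064384 to 30067796) was at 427 CPM in the B10 library and 291 in DBA, compared with 297 in *mdx* and 181 in D2-*mdx*. *mdx* and DBA thus had nearly the same level, with B10 above them and D2-*mdx* below. On the log2 scale, *mdx* differed from B10 by -0.53 (-0.56 to -0.49) and D2-*mdx* from DBA by -0.69 (-0.73 to -0.64). The differences between backgrounds were of like size, -0.55 (-0.59 to -0.52) for DBA against B10 and -0.72 (-0.76 to -0.67) for D2-*mdx* against *mdx*. *Hey1* (ENSMUSG00000040289, chromosome 3, 8663359 to 8667256) was at 77.7 CPM for B10 and 91.9 for DBA, and at 70.0 for *mdx* and 50.6 for D2-*mdx*. It was close to B10 in *mdx*, with a log2 ratio of -0.15 (-0.23 to -0.08), and had the most negative ratio of the members in D2-*mdx* over DBA, -0.86 (-0.95 to -0.78). *Rbpj* (ENSMUSG00000039191, chromosome 5, 53466152 to 53657362), the DNA-binding partner of the cut receptors, was at 115 CPM in the B10 library and 99.8 in DBA, compared with 104 in *mdx* and 101 in D2-*mdx*. *mdx* differed from B10 by a log2 ratio of -0.15 (-0.21 to -0.09), and D2-*mdx* from DBA by 0.02 (-0.05 to 0.09).

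**Figure D1:**
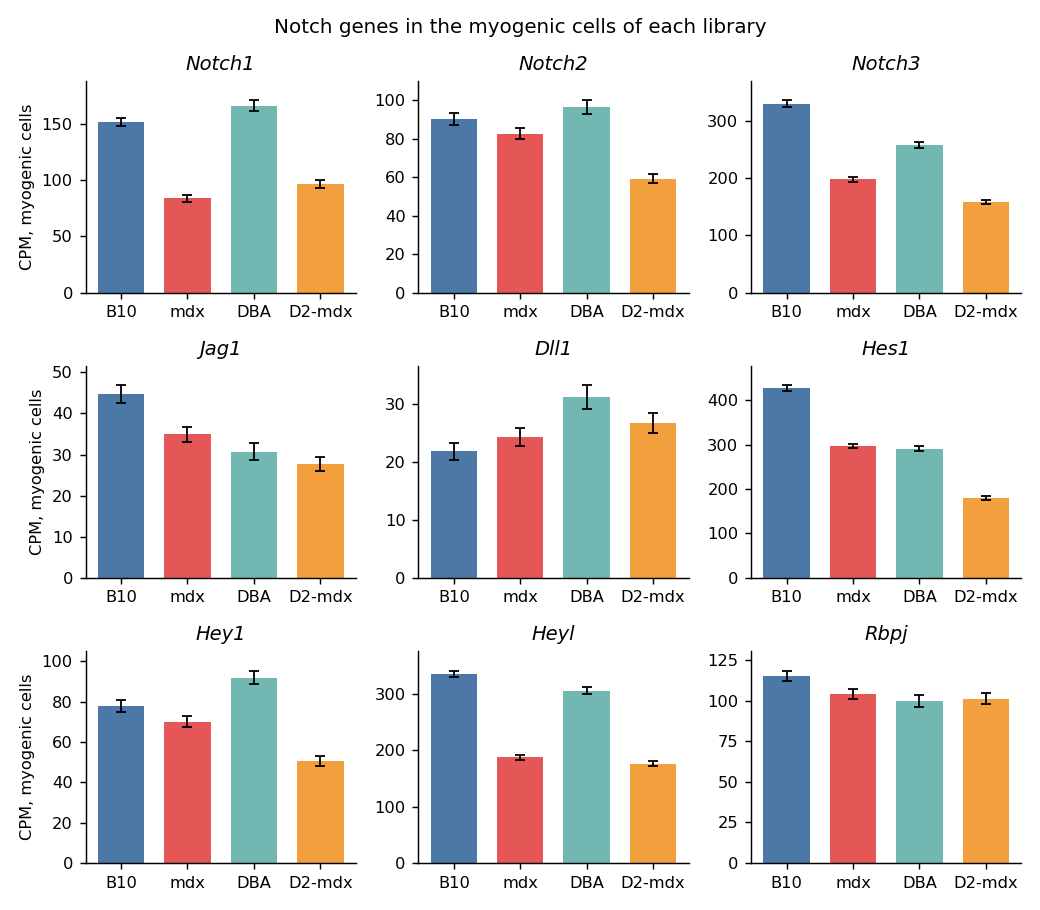
Level of 9 Notch genes, in CPM on a linear axis from 0, in the myogenic cells of the B10, *mdx*, DBA and D2-*mdx* libraries. Bars are 1 library each and error bars are exact Poisson intervals. *Notch1*, *Notch2*, *Notch3*, *Hey1* and *Heyl* have both dystrophic bars below both controls, while the 4 *Rbpj* bars lie between 99.8 and 115 CPM.

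Counted over the members, 9 of the 10 reached 10 CPM in a library of each pair, and past 1.5-fold none was higher and 3 were lower in *mdx* than in B10 (*Notch1*, *Notch3* and *Heyl*), against 13.6% of all measured genes that were lower by that much. In D2-*mdx* over DBA none was higher and 6 were lower (the same 3 and *Notch2*, *Hes1* and *Hey1*), against 17.6% of all measured genes. The median log2 ratio of the 9 was -0.36 in *mdx* and -0.70 in D2-*mdx*, and that of all measured genes was -0.03 and -0.07. Between the dystrophic strains 1 member (*Hes1*) passed 1.5-fold, lower in D2-*mdx* than in *mdx*, where 4.50% of all genes were lower by that much. Between the controls no member did, and 8.87% of all genes passed in either direction. Each library enters 2 of these comparisons. The members were chosen with earlier results of these data known, so these counts describe the members and are not a test of them.

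The states of the cells differ in share between the libraries, and the members differ between states, so that the same ratios were taken over MuSC-like cells alone. Cycling progenitor-like cells made up 0.0679% of the B10 myogenic cells and 0.444% of those of DBA, but 2.55% of those of *mdx* and 6.43% of those of D2-*mdx*. The share of differentiating myocyte-like cells was 1.61%, 5.81%, 2.30% and 5.57% and that of DMD-enriched-like cells 0.679%, 19.4%, 1.55% and 13.7% for B10, *mdx*, DBA and D2-*mdx*. In MuSC-like cells *Notch1* was at 147 CPM for B10 and 163 for DBA, and at 78.4 for *mdx* and 112 for D2-*mdx*. The *mdx* ratio was as large there as over all myogenic cells, at -0.91 (-1.0 to -0.83), and the D2-*mdx* ratio was smaller, at -0.54 (-0.62 to -0.46). *Heyl* was at 338, 181, 316 and 241 CPM in the same order of libraries. Its ratio was -0.90 (-0.96 to -0.85) in *mdx* and -0.39 (-0.45 to -0.34) in D2-*mdx*. *Notch3* was at 341, 242, 273 and 226 CPM, and its ratios shrank in both pairs, to -0.49 (-0.54 to -0.44) and -0.28 (-0.33 to -0.22). *Jag1* went the other way from its ratio over all myogenic cells and was higher in both dystrophic libraries, by 0.14 (0.02 to 0.26) in *mdx* and 0.31 (0.16 to 0.46) in D2-*mdx*.

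Past 1.5-fold, 2 members were lower in *mdx* MuSC-like cells (*Notch1* and *Heyl*, where 10.2% of all genes were), and none in D2-*mdx* MuSC-like cells (where 11.3% were). With the states of the dystrophic library weighted to the mix of its control, the D2-*mdx* count was 1 (*Notch1*, -0.63). With that weighting 19.3% of all genes passed 1.5-fold in either direction. None of the 6 D2-*mdx* differences past 1.5-fold over all myogenic cells stayed past it within MuSC-like cells, whereas those of *Notch1* and *Heyl* in *mdx* did. All 6 genes were still lower in D2-*mdx* than in DBA there, and the interval of *Notch1* reached past 1.5-fold. *Hey1*, for example, was at 72.7 CPM in MuSC-like cells of D2-*mdx* and 96.6 in those of DBA.

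**Figure D2:**
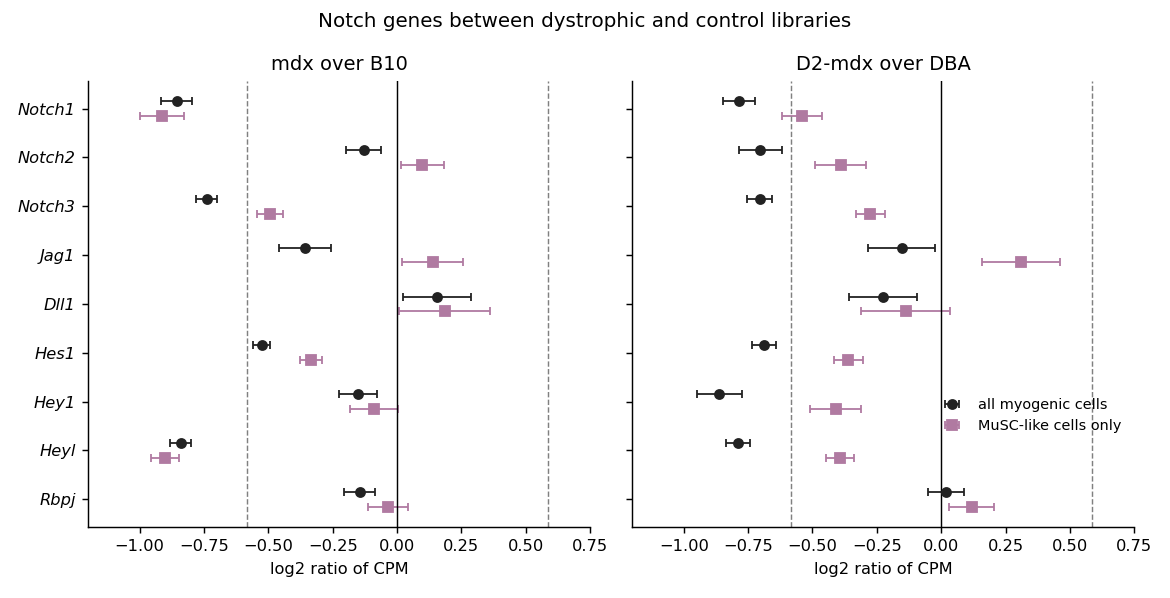
Log2 ratio of CPM for 9 Notch genes in *mdx* over B10 (left) and D2-*mdx* over DBA (right), over all myogenic cells (circles) and over MuSC-like cells only (squares), with exact counting intervals. Dashed lines mark 1.5-fold. In D2-*mdx* all 9 squares lie inside the dashed lines, while *Notch1* and *Heyl* in *mdx* stay beyond them.

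Across the myogenic states the receptors did not go together. *Notch3* was counted at 218 to 321 CPM over the 4 libraries in MuSC-like cluster 0 and at 25.0 to 136 CPM in differentiating myocyte-like cells, a log2 ratio of -3.12 to -1.24 that was negative in each library. In cycling progenitor-like cells it was at 54.0 CPM (43.9 to 65.7) in *mdx* and 40.1 (34.5 to 46.4) in D2-*mdx*, against 143 (94.7 to 206) in the 12 cells of DBA. In those 12 cells 5 MuSC markers, among them *Pax7*, summed to 1736 CPM, against 502 in *mdx* and 358 in D2-*mdx*. The part of the marker levels in this *Notch3* difference was not tested. *Notch1*, unlike *Notch3*, was as high or higher in differentiating than in MuSC-like cluster 0 cells of each library, by a log2 ratio of 0.03 to 0.67. Against MuSC-like cluster 1 this did not hold in every library. There *Notch1* was at 101 to 166 CPM over the 4 libraries. The 93.5 CPM of *mdx* differentiating cells lay below this range, and the 113 CPM of those of D2-*mdx* lay within it. These differences from cluster 1 were not tested. In differentiating cells *Notch1* was at 233 CPM in the B10 library and 237 in DBA, compared with 93.5 in *mdx* and 113 in D2-*mdx*, so that the libraries kept the order they had over all myogenic cells. *Notch2* was lower in cycling cells than in MuSC-like cluster 0 of each of the same 3 libraries, at 25.8 to 50.9 CPM.

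The ligand *Dll1* was highest in differentiating myocyte-like cells. There it was at 72.6 CPM (56.9 to 91.3) in the B10 library and 75.7 (59.2 to 95.3) in DBA, compared with 80.4 (71.6 to 90.0) in *mdx* and 81.4 (70.9 to 93.1) in D2-*mdx*. These 4 values overlapped one another within counting error, and each was above the level in the MuSC-like clusters of every library (range 19.7 to 33.8 CPM). Relative to MuSC-like cluster 0 of the same library the log2 ratio was 1.47 to 1.96. *Jag1* did the opposite, with a mean over the libraries, weighted equally, of 15.0 CPM in differentiating cells and 40.1 to 44.3 CPM in the MuSC-like clusters. The targets were lower in differentiating cells than in MuSC-like cluster 0 of every library, by -2.81 to -0.65 for *Heyl*, -2.19 to -0.37 for *Hey1* and -1.75 to -1.08 for *Hes1*. *Hes1* was only slightly lower in *mdx* against MuSC-like cluster 1, where immediate-early genes were lower than in cluster 0. It was at 163 CPM (151 to 177) in differentiating cells and 178 (166 to 190) in cluster 1, with overlapping intervals. In B10, DBA and D2-*mdx* it was lower than in cluster 1 as well (224 against 389, 134 against 238 and 74.2 against 147 CPM). Relative to MuSC-like cluster 0, *Dll1* was thus high, and *Notch3* and the targets low, in the sums of the same cluster. Whether this holds within single cells was not tested.

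The clusters held cells of unequal marker level in the different libraries, which bears on comparisons between strains within a state. The 6 markers of differentiating myocytes, among them *Myog*, summed to 417 CPM for B10 and 624 for DBA but to 5284 for *mdx* and 4011 for D2-*mdx*, and the 5 MuSC markers, among them *Pax7*, to 1997, 1588, 614 and 575 CPM in B10, DBA, *mdx* and D2-*mdx* cells of that cluster. In these cells *Heyl* was at 217 CPM for B10 and 187 for DBA but at 52.6 for *mdx* and 34.1 for D2-*mdx*, and *Notch3* at 136 and 54.6 against 29.9 and 25.0. The part of the marker levels in these differences was not tested. Cluster 3 showed the same: its MuSC markers summed to 2893 CPM for B10 and 3103 for DBA, but to 1536 for *mdx* and 1417 for D2-*mdx*, and the log2 ratios for *Notch3* (-1.31 and -1.32), *Heyl* (-1.72 and -1.46) and *Notch1* (-1.19 and -1.30) of *mdx* to B10 and of D2-*mdx* to DBA were larger in size than in MuSC-like clusters 0 and 1. In the smaller MuSC-like cluster 6 the *Notch1* ratio of *mdx* to B10 was -1.46 (-2.45 to -0.60). In MuSC-like cluster 0 the same MuSC markers were within 3367 to 3607 CPM in the 4 libraries. With *Nppc* in place of *Cdh15*, as in the list that named the myogenic clusters, they summed to 5006 CPM for B10 and 5696 for DBA, but to 3905 for *mdx* and 4301 for D2-*mdx*. There *Notch1* (-1.05, -1.15 to -0.94), *Heyl* (-0.89, -0.96 to -0.83) and *Notch3* (-0.52, -0.58 to -0.46) were lower in *mdx* than in B10, and *Rbpj* was within counting error (-0.01, -0.10 to 0.08). In D2-*mdx* relative to DBA the ratios in this cluster were -0.56 (-0.65 to -0.47) for *Notch1*, -0.44 (-0.50 to -0.37) for *Heyl*, -0.28 (-0.35 to -0.21) for *Notch3* and 0.14 (0.04 to 0.25) for *Rbpj*. The part of the marker levels in these ratios was not tested either.

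The DMD-enriched-like cluster, which came mostly from the dystrophic libraries (935 *mdx* and 574 D2-*mdx* cells against 30 and 42 of their controls), also expressed the Notch receptors and targets. *Notch3* was there at 227 CPM in *mdx* and 157 in D2-*mdx*, *Heyl* at 279 and 208, and *Hes1* at 316 and 202. Relative to MuSC-like cluster 0 of the same library, *Notch3* had a median log2 ratio of -0.32 and a range over the 4 libraries from -0.54 to 0.03. For *Heyl* the median was -0.27 and the range -0.49 to 0.61, and for *Notch1* they were 0.23 and -0.08 to 0.45. The signs thus varied between libraries for all 3. *Heyl* was above MuSC-like cluster 0 in *mdx* (279 against 183 CPM) and below it in D2-*mdx* (208 against 240). These medians and ranges weight the few control cells as much as the dystrophic ones. The 8 markers of the cluster summed to only 950 CPM for B10 and 891 for DBA, but to 5033 for *mdx* and 3359 for D2-*mdx*. MuSC-like cluster 6 had the highest mean level of *Heyl* (358 CPM, range over the libraries 296 to 442) and of *Hes1* (491 CPM, range 417 to 648) among the myogenic clusters, although its range overlapped that of the next cluster for both.

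**Figure D3:**
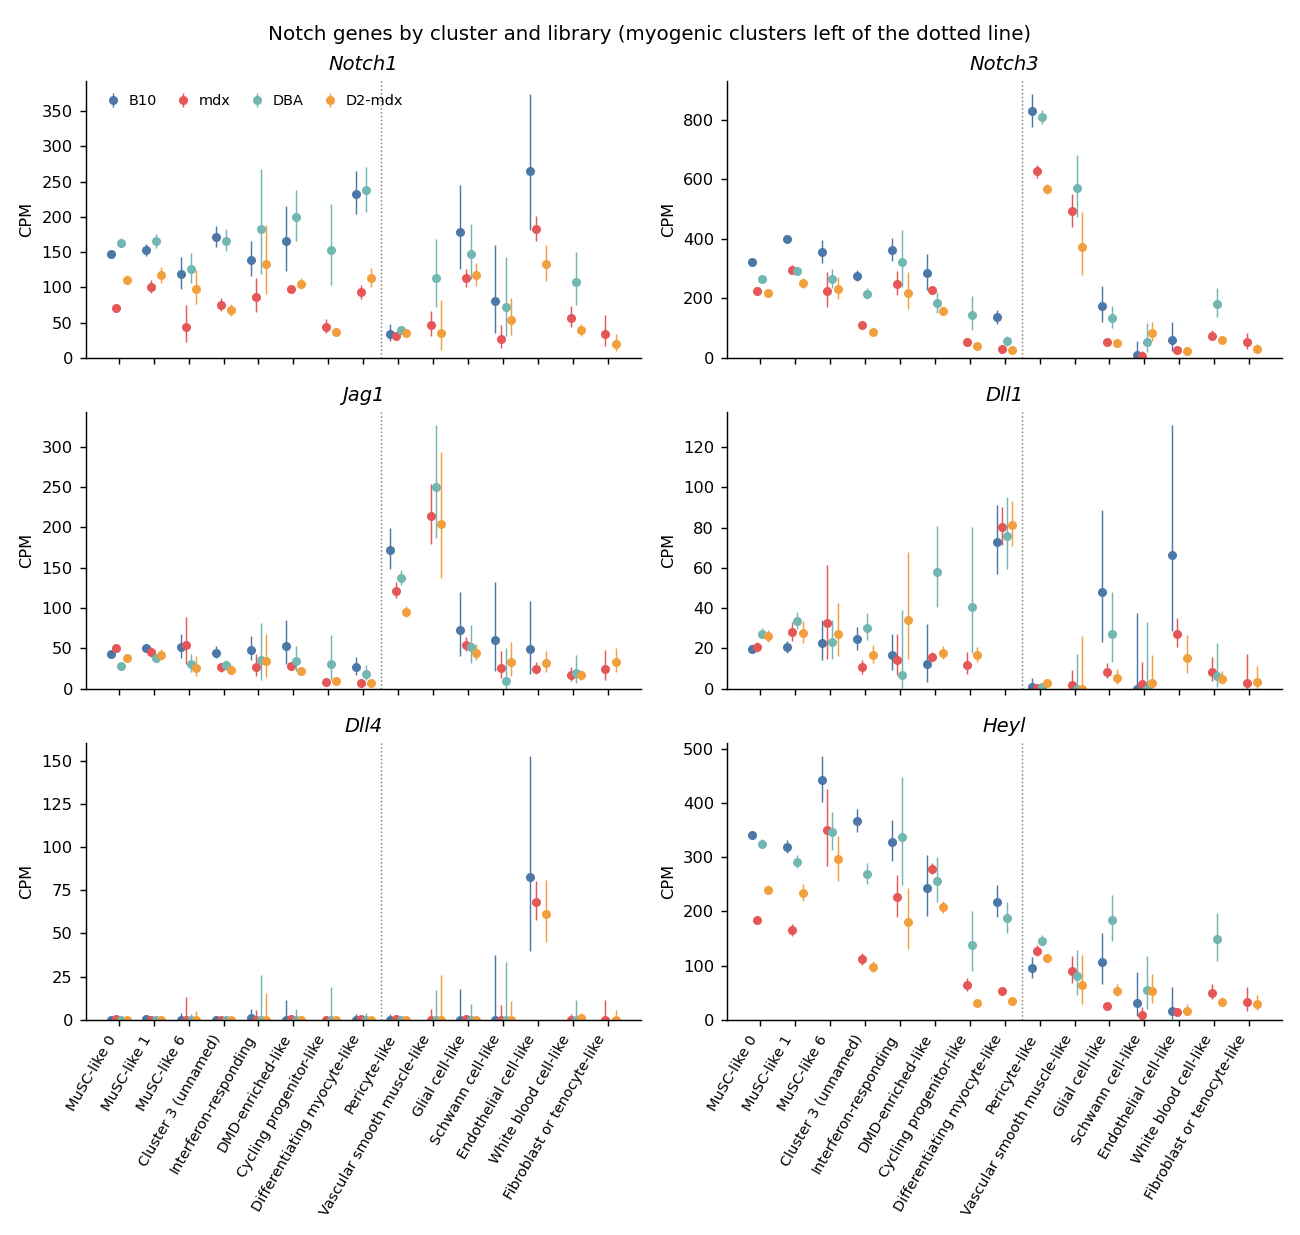
Level of *Notch1*, *Notch3*, *Jag1*, *Dll1*, *Dll4* and *Heyl* in CPM (linear axes from 0) in each cluster, 1 point per library with an exact Poisson interval. Libraries with fewer than 10 cells of a cluster are left out. *Dll1* is highest in differentiating myocyte-like cells in each library, *Notch3* and *Jag1* in pericyte-like and vascular smooth muscle-like cells, and *Dll4* lies near 0 outside endothelial cell-like cells.

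The other cells that came through the sort expressed ligands as well. In pericyte-like cells *Jag1* was at 172 CPM (148 to 199) in the B10 library and 138 (128 to 148) in DBA, compared with 122 (112 to 132) in *mdx* and 95.5 (88.6 to 103) in D2-*mdx*. In vascular smooth muscle-like cells it was at 214 CPM (179 to 254) in *mdx* and 204 (137 to 293) in D2-*mdx*, against 250 (187 to 326) in DBA. Both cell types were above every myogenic cluster (range 6.94 to 54.0 CPM in any library with at least 10 cells), and smooth muscle-like cells were above pericyte-like cells in each of these 3 libraries. The same mural cells held the highest *Notch3*, which in pericyte-like cells was at 828 CPM for B10 and 809 for DBA, and at 627 for *mdx* and 567 for D2-*mdx*. Here too the dystrophic libraries were lower than their controls, by -0.40 (-0.51 to -0.29) and -0.51 (-0.57 to -0.45) for *Notch3* and -0.50 (-0.74 to -0.25) and -0.53 (-0.67 to -0.38) for *Jag1*. Of the targets beyond the members, *Nrarp*, a Notch target that dampens the signal, and *Hey2*, another repressor of the Hey family, averaged 192 and 59.7 CPM in smooth muscle-like cells and stayed at or below 4.41 CPM in the summed myogenic cells of each library. *Nrarp* was also at 39.1 to 81.9 CPM in pericyte-like cells, and at 87.4 in *mdx* and 59.9 in D2-*mdx* endothelial cell-like cells. Some single myogenic clusters lay above 4.41 CPM. Among them were DMD-enriched-like cells of *mdx* (*Nrarp*, 8.04), MuSC-like cluster 6 of D2-*mdx* (*Nrarp*, 14.4 from 10 UMIs) and that of B10 (*Hey2*, 7.18 from 7 UMIs).

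Endothelial cell-like cells held most of the *Dll4* UMIs, 150 of 160 in *mdx* and 48 of 51 in D2-*mdx*. Its level there was 82.9 CPM (39.8 to 153) in the 14 cells of B10 and 64.2 (23.6 to 140) in the 8 cells of DBA, compared with 68.3 (57.8 to 80.2) in *mdx* and 61.2 (45.1 to 81.2) in D2-*mdx*, and the 4 intervals overlapped. In MuSC-like cells of *mdx* *Dll4* was at 0.237% of its endothelial level, and in D2-*mdx* at 0.0965%. The 6 endothelial markers, which myogenic cells should lack, were at 0.108% to 0.306% and 0.0838% to 0.286% of theirs, and *Dll4* lay within both ranges. These *Dll4* values rest on 3 UMIs and 1 UMI. In B10, where 14 endothelial cell-like cells set the reference, *Dll4* was at 0.175% from 5 UMIs, below *Pecam1* (0.202%) and above the other 5 markers (0.00535% to 0.0206%). MuSC-like cells of DBA had 0 *Dll4* UMIs. *Dll1* in MuSC-like cells was at 83.4% of its endothelial level in *mdx* and 173% in D2-*mdx*, above all 6 markers in both libraries. *Notch1* was likewise counted in endothelial cell-like cells, at 183 CPM in *mdx* and 133 in D2-*mdx*. The highest mean *Rbpj* level of any cluster was in white blood cell-like cells (174 CPM, range over the libraries 104 to 240), although this range overlapped that of other clusters. They were the highest cluster in *mdx*, at 240 CPM (211 to 271), and in D2-*mdx*, at 178 (159 to 198). In the 23 cells of DBA *Rbpj* was at 104 CPM, below other clusters of that library such as DMD-enriched-like cells (136). In those 23 cells the MuSC markers summed to 1880 CPM, and in the *mdx* and D2-*mdx* cells to 589 and 478.

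The share of each member's UMIs that lay in myogenic cells differed between libraries. For *Notch3* it was 92.9% (92.5 to 93.3) in the B10 library and 61.8% (61.0 to 62.7) in DBA, compared with 68.1% (67.2 to 68.9) in *mdx* and 54.5% (53.5 to 55.4) in D2-*mdx*, and pericyte-like cells held 42.4% of the D2-*mdx* UMIs. For *Jag1* the share was 87.4% for B10 and 51.6% for DBA, and 58.9% for *mdx* and 51.0% for D2-*mdx*. *Dll1* lay mostly in myogenic cells in all libraries, at 97.9% for B10 and 98.0% for DBA, and 91.0% for *mdx* and 94.3% for D2-*mdx*. Pericyte-like cells numbered 97 in the B10 library and 484 in DBA, compared with 608 in *mdx* and 976 in D2-*mdx*, and the gate can set these shares.

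Cell by cell, a Notch receptor transcript and a target transcript were both seen in 51.7% (*mdx*, 49.9 to 53.5) to 69.6% (B10) of MuSC-like cells, even at equal low depth. With each cell thinned to 3000 UMIs, *Notch3* was detected in 62.2% (60.6 to 63.7) of the MuSC-like cells of B10 and 56.7% (54.6 to 58.7) of those of DBA, but in 49.7% (47.9 to 51.5) of those of *mdx* and 47.9% (46.0 to 49.8) of those of D2-*mdx*. Unthinned, the shares were 90.4%, 70.5%, 91.4% and 69.4% for B10, *mdx*, DBA and D2-*mdx*, at median depths of 8186, 5564, 10151 and 5558 UMIs. In endothelial cell-like cells of all libraries the thinned share was 6.09% (3.86 to 9.08, median depth 7687 UMIs). At least 1 of the 3 receptors was seen in 81.2%, 69.0%, 79.6% and 69.8% of thinned MuSC-like cells of B10, *mdx*, DBA and D2-*mdx*, at least 1 of the 3 targets in 85.5%, 73.9%, 84.9% and 74.8%, and both in 69.6%, 51.7%, 67.5% and 53.0%. The dystrophic libraries were lower than the controls for each. At least 1 of the 3 ligands was seen in 17.7%, 18.6%, 16.4% and 17.6% of the same cells, shares whose intervals overlapped (16.6 to 19.0, 17.3 to 20.1, 14.9 to 17.9 and 16.2 to 19.1). Cells with both a receptor and a ligand transcript made up 14.2%, 13.5%, 13.3% and 12.2%. Whether any of these joint shares exceeds what the single shares alone would give was not tested. In differentiating myocyte-like cells of all libraries *Dll1* was seen in 22.1% (19.0 to 25.5) and *Notch1* in 31.9% (28.3 to 35.6) after thinning, against 6.40% and 29.8% in MuSC-like cells. These shares pool libraries in an unequal mix. *mdx* gave 280 and D2-*mdx* 233 of the 646 differentiating cells, against 3048 and 2738 of the 12039 MuSC-like cells. In single libraries *Dll1* was seen in 21.8% to 23.9% of differentiating and 5.33% to 8.18% of MuSC-like cells. In pericyte-like cells *Dll1* was at 0.509%.

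*Hes1* differed from the other targets in how it followed immediate-early genes, a group (*Fos*, *Fosb*, *Jun*, *Junb*, *Jund*, *Egr1*, *Ier2* and *Atf3*) known to be induced within minutes by stimuli that include the enzymatic dissociation of muscle. MuSC-like cells of each library, thinned to 3000 UMIs, were ordered by their immediate-early UMIs and split into 4 groups of equal size. From the lowest to the highest group, *Hes1* went from 406 to 578 CPM for the B10 library, from 178 to 470 for *mdx*, from 241 to 373 for DBA and from 136 to 286 for D2-*mdx*. In this order, the log2 ratios were 0.51 (0.40 to 0.62), 1.40 (1.23 to 1.57), 0.63 (0.45 to 0.81) and 1.07 (0.86 to 1.28). *Heyl* differed by far less, with ratios of 0.16 (0.03 to 0.29), 0.15 (-0.06 to 0.36), 0.15 (-0.02 to 0.32) and -0.01 (-0.19 to 0.17), and *Hey1* had ratios of -0.37 to 0.03, of which that of DBA (-0.37, -0.69 to -0.05) was off 0. *Notch3* was lower in the highest group in B10 (-0.37, -0.50 to -0.25) and *mdx* (-0.53, -0.70 to -0.36), and not beyond counting error in DBA and D2-*mdx*. *Notch1* was lower in the highest group in *mdx* (-0.48, -0.79 to -0.18) and D2-*mdx* (-0.37, -0.65 to -0.09), and within counting error in B10 and DBA. In the lowest group *Notch1* was at 145 CPM for B10 and 177 for DBA, and at 95.4 for *mdx* and 122 for D2-*mdx*. *Hes1* was lower in the lowest group of *mdx* than in that of B10 (178 against 406 CPM), and the highest groups of these libraries were closer (470 against 578). Because the groups were cut within each library, they are not matched between strains in immediate-early UMIs. The lowest group spanned 0 to 35 of these UMIs per thinned cell in B10 and 0 to 46 in *mdx*. The part of such unequal limits in the *Hes1* and *Notch1* differences between libraries was not tested. Summed over all MuSC-like cells, the 8 immediate-early genes were at 36962 CPM for B10 and 31915 for DBA, and at 44762 for *mdx* and 47839 for D2-*mdx*. MuSC-like cells of each dystrophic library thus had higher immediate-early levels and lower *Hes1* than those of its control, and the part of dissociation in either was not tested.

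**Figure D4:**
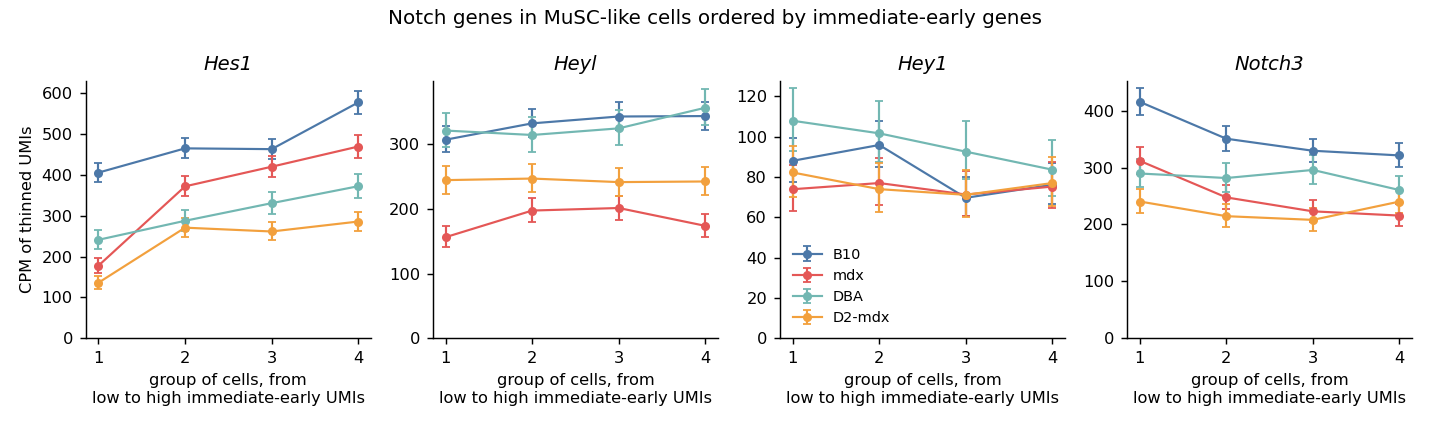
Level of *Hes1*, *Heyl*, *Hey1* and *Notch3* in 4 equal groups of the MuSC-like cells of each library, ordered from low to high UMIs of 8 immediate-early genes, in CPM of UMIs thinned to 3000 per cell, with exact Poisson intervals. *Hes1* is higher in the highest than in the lowest group in each library, whereas the *Heyl* ratios of highest to lowest group lie between -0.01 and 0.16 on the log2 scale.

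The wider pathway was counted over 70 genes in 10 groups, chosen with earlier results of these data known. Of 49 measured in *mdx* and B10, 4 were higher and 12 lower past 1.5-fold, and of 48 in D2-*mdx* and DBA, 3 were higher and 16 lower, beside the shares of all genes given above (10.3% higher and 13.6% lower, and 12.9% and 17.6%). All ratios here are over myogenic cells of all states, whose shares differ between the libraries. Beyond the members, 7 genes were lower in both pairs. They were the coactivators of the RBPJ complex *Maml1* (log2 ratios -0.67 and -0.91), *Ep300* (-0.81 and -0.77) and *Kat2b* (-0.97 and -1.17), the Notch-binding regulators *Numb* (-1.18 and -0.85) and *Dtx4* (-1.0 and -0.99), the presenilin gene *Psen2* (-1.08 and -1.52) and *Calcr* (-0.75 and -0.89), a receptor of quiescent satellite cells. Genes higher in both were *Maml3* (1.24 and 1.34), another coactivator, *Col5a2* (1.29 and 1.00), a chain of collagen V, and *Hes6* (0.99 and 1.26), which is known to favour differentiation and averaged 126 CPM in differentiating myocyte-like cells. Within MuSC-like cluster 0 *Hes6* differed less, at 30.1 CPM for B10 and 24.9 for DBA, and 44.0 for *mdx* and 44.1 for D2-*mdx*. None of the 6 corepressors of RBPJ passed 1.5-fold in *mdx*, and 1 was lower in D2-*mdx*. The proteases that cut the receptors had a median log2 ratio of -0.03 in *mdx* and -0.05 in D2-*mdx* over 9 measured genes. *Jag2*, *Dll3* and *Hes5* were each at or below 1.15 CPM in myogenic cells.

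Likeness across the 15 clusters was described by Pearson's r of log2(CPM + 1), with the libraries weighted equally. The points share libraries and depth, and no p is given. *Dll4* averaged 70.8 CPM in endothelial cell-like cells and at most 0.35 in any other cluster, so its r values rest on that 1 cluster. For *Dll1* the most alike genes were *A930033H14Rik* (r = 0.95), *Plxna2* (0.95) and *Mamstr* (0.93). For *Dll4* they were *Rps6kl1*, *4930578C19Rik* and *Gm694* (each r = 1.00 after rounding), for *Notch3* *Filip1l* (0.90), *Pde3a* (0.90) and *Agap2* (0.87), and for *Heyl* *Slc2a12* (0.94), *Fhad1* (0.93) and *Hoxc11* (0.93). For *Notch1* they were *Pcdh17* (0.90), *Ctbp2* (0.90) and *Wbp4* (0.89), for *Notch2* *Ercc6* (0.94), *Polg2* (0.92) and *Abcb8* (0.92), and for *Jag1* *Zc2hc1a* (0.93), *Bcl9l* (0.92) and *Ppp1r12b* (0.92). For *Hey1* they were *Slc43a3* (0.95), *Zfp36l2* (0.94) and *Itpr2* (0.94), and for *Rbpj* *Abcc1* (0.90), *Sipa1l3* (0.89) and *Trps1* (0.89). *Hes1* had the lowest best value of the members, with *Mpp2* (0.86), *Pcdhb16* (0.82) and *Igf1r* (0.81).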

How the data were processed

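Satellite cells of B10, *mdx*, DBA and D2-*mdx* mice were profiled as 1 library per strain. The authors deposited raw UMI counts per gene and cell, made per the labels with Cell Ranger 3.0.1 on mm10, and no other unit was used. Barcodes were kept that held 1000 to 5000 genes and whose mitochondrial share did not exceed 8%. The cells with the highest doublet scores (scanpy 1.11.5) were then removed. Their share, 2.70% to 5.34% per library, was set in advance from the number of cells and is not a measured doublet rate. Libraries were integrated and clustered in Seurat 5.3.0 with 30 dimensions (resolution 0.1, and 0.2 when myogenic cells were clustered alone), so that clusters rebuilt here can differ from those of the study. Counts were summed per library and cluster and given as CPM (counts per 1000000 counts summed). A gene was counted as higher or lower past 1.5-fold where 1 library of the pair reached 10 CPM. The 10 genes are named with their values, and the remaining pathway genes named are those past 1.5-fold the same way in both pairs, or unmeasured receptors, ligands and targets. Their lists and the members were chosen with earlier results of these data known. Ratios and intervals were tested on simulated counts that held counting error alone. That test does not cover the spread between mice, libraries or cells. For shares, cells were thinned to 3000 UMIs, which left out 45 B10 cells. Sequences are RefSeq's and positions those of GENCODE M21 on GRCm38. Alternatives were other cell limits, doublets kept, no integration, other scalings (edgeR 4.0.16, DESeq2 1.42.0), other cells summed and other thresholds.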

Additional observations from a re-analysis of the deposited data

Results flagged for a closer look

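*Dll1* went in opposite directions in the 2 disease comparisons of myogenic cells. Its log2 ratio was 0.16 for *mdx* over B10 and -0.22 for D2-*mdx* over DBA, each with 1 library per strain, and the difference between the pairs was not tested. Under the 11 alternatives the first ranged from -0.07 to 0.26 and the second from -0.45 to -0.14. The ratio between the 2 controls, DBA over B10, was 0.51, larger in size than that of either disease comparison.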

How the results depend on the processing

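No paired analysis was possible because each strain is 1 library with no replicates. The count of Notch genes lower past 1.5-fold in *mdx* than in B10, 3, was 0 at 2-fold. Of all measured genes 9.89% passed 2-fold there in either direction, against 23.9% past 1.5-fold. The count of 6 in D2-*mdx* over DBA was 3 with the mean of counts per cell, 0 in MuSC-like cells only, 1 with the state mix of the control and 0 at 2-fold. Under these settings, in this order, 23.4%, 19.0%, 19.3% and 11.6% of all genes passed in either direction, against 30.6% in the main setting. The other alternatives kept both counts within 1.5 times the main value, and none gave a gene higher past 1.5-fold. Over 11 alternatives *Notch1* ranged from -0.96 to -0.80 in *mdx* over B10 and from -1.18 to -0.54 in D2-*mdx* over DBA, *Heyl* from -1.03 to -0.78 and from -1.22 to -0.39, and *Notch3* from -0.89 to -0.49 and from -1.13 to -0.28. *Jag1* took either sign in both pairs, from -0.48 to 0.14 and from -0.55 to 0.31. The genes named as most alike differed for all 10 members with Spearman's correlation. Intervals cover counting error alone. Strain, age and library cannot be told apart, and *Dll4* in myogenic cells was near the limit of detection.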
